A study of Mus musculus with 12 samples.

Results

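The genes described here are 10 members of the Bcl2 family and of the p53-linked death machinery. They are the anti-apoptotic genes Bcl2, Bcl2l1 and Mcl1, the effector gene Bak1, the BH3-only genes Bid, Bcl2l11, Bbc3 and Pmaip1, the apoptosome gene Apaf1 and the death receptor gene Tnfrsf10b. Their probes were those for which the platform annotation gives exactly 1 of these symbols, which made 10 of the 17711 genes named on the array and 28 of its 46632 probes.

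Illumina mouse bead arrays were used to profile hematopoietic stem cells (HSCs) of the bone marrow, with 12 arrays in 6 groups of 2 biological replicates each. Sorted cells were positive for c-kit, Sca-1 and CD150 and negative for CD48 and lineage markers, and each sample held 200 cells whose RNA went through a pair of amplification rounds. The series asks how cells with mutant p53 (mp53), expressed from the R26 (Rosa26) locus, and wild-type (WT) cells fare against each other after irradiation. Irradiated mice received 2.5 Gy and were killed 3 weeks later. The 6 groups were WT cells and mp53 cells of unirradiated mosaic mice, WT cells of irradiated WT mice, mp53 cells of irradiated fully recombined R26-mp53 mice, and the WT and mp53 cells of irradiated mosaic mice, which the labels call losers and winners. GFP marked the mp53 cells of mosaic mice and was absent from their WT cells, so a sort by GFP is there a sort by genotype. The labels call the first 4 groups non-competing, the unirradiated mosaic cells included. No unirradiated group from WT or fully recombined mice was analysed here, so irradiation without competition was compared with unirradiated mosaic mice. By these labels, irradiated and unirradiated cells of mosaic mice differ in dose and in competition. These cannot be told apart in the comparisons called irradiation in mosaic mice, or in their interaction with genotype. The sources used here do not give strain, age or the p53 allele. Nor do they say if each replicate was a mouse of its own, and p-values then reflect only sample-to-sample spread, which may be technical.

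Mitochondrial apoptosis is set by the balance among Bcl2 family proteins. Anti-apoptotic members bind and hold BH3-only proteins and the effectors Bak and Bax. When effectors are freed they permeabilize the outer mitochondrial membrane, and released cytochrome c assembles with Apaf1 into the apoptosome, which activates caspase-9. Several of these genes, above all Bbc3 (Puma) and Pmaip1 (Noxa), and also Apaf1 and Tnfrsf10b, are known transcriptional targets of p53, and Bbc3 is known for its part in the death of blood progenitors after irradiation.

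The promoters of Mcl1, Bcl2 and Apaf1 are printed. These are the members detected on every array whose winners and losers did not overlap, though none of the 3 differences passed the test below. Each is the 250 bases before the gene start in RefSeq's table for GRCm38.p6, written 5′ to 3′ on the strand of the gene. Capitals mark the GC box GGGCGG or its reverse complement CCGCCC. Mcl1 lies at chr3:95658471-95658720 on the plus strand with 1 GC box, Bcl2 at chr1:106714291-106714540 on the minus strand with 7, and Apaf1 at chr10:91082744-91082993 on the minus strand with 2.
Mcl1: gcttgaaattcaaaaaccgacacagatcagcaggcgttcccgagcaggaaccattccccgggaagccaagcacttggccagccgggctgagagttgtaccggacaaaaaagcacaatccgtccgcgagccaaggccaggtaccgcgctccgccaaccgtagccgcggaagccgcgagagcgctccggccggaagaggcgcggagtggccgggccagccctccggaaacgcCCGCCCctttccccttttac
Bcl2: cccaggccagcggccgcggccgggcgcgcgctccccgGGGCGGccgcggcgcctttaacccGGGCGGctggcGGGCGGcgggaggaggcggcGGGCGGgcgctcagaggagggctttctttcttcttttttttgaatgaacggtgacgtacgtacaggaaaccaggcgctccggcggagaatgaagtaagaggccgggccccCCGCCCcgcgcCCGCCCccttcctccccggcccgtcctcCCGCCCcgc
Apaf1: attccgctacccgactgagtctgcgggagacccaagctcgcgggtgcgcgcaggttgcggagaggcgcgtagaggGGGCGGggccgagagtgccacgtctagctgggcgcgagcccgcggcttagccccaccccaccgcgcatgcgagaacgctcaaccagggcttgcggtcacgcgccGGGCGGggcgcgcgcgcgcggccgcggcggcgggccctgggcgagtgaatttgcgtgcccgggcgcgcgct
The table held 13 promoters for 8 of the 10 members, and Pmaip1 and Tnfrsf10b were not among them. Bbc3 and Bcl2l1 had 3 starts each and Bcl2l11 had 2, so the promoters are not independent. A GC box on either strand was in 9 of these 13 promoters and in 32.7% of all 32851 promoters of that length. An exact match to the p53 consensus decamer RRRCWWGYYY (R is A or G, W is A or T, Y is C or T) was sought on both strands. It was in 0 of the 13 and in 7.13% of all promoters. Sites with a mismatch or outside these 250 bases were not sought, so this does not show that p53 sites are absent. The CpG count ran from 0 to 42 in the members' promoters, with 26 in Mcl1, 36 in Bcl2 and 42 in Apaf1, against a median of 6 over all promoters.

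Array brightness and the markers of the sorted cells varied between samples in ways that touch every result below. The 95th percentile of raw intensity was 82.3 on replicate 1 of unirradiated mp53 cells and 107 on replicate 1 of losers, the dimmest pair of arrays, and reached 1079 on replicate 2 of winners. Probes with a detection p-value under 0.05 numbered 8968 to 13489 per array. Replicates of a group correlated at 0.756 to 0.918 (median 0.863), while arrays of different groups with the same replicate number had a median of 0.922. Among markers that define the gate, Kit was detected on all 12 arrays, Slamf1 (CD150) on 3 and Cd48, whose product the gate excluded, on 10. The summed level of a marker list is the log2 of its summed linear intensities after normalization, so bright markers weigh most. For 11 HSC markers it was 8.98 to 9.93 in winners and 10.72 to 12.99 in the other 5 groups. Trp53 had no probe annotated with 1 symbol, so the transgene itself was not analysed here.

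Detection split the members into 2 sets. A probe was kept for testing when 1 or more groups had it detected (p-value under 0.05) on each of their arrays, and 9 of the 28 member probes, from 6 genes, met this. Mcl1, Bcl2, Bid and Apaf1 each had 1 probe detected on all 12 arrays. The probe of Tnfrsf10b was detected on 11 arrays and that of Bak1 on 10. The other 4 genes had 11 probes, of which 10 were detected on no array, and across all members 17 probes were never detected.

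**Figure D1:**
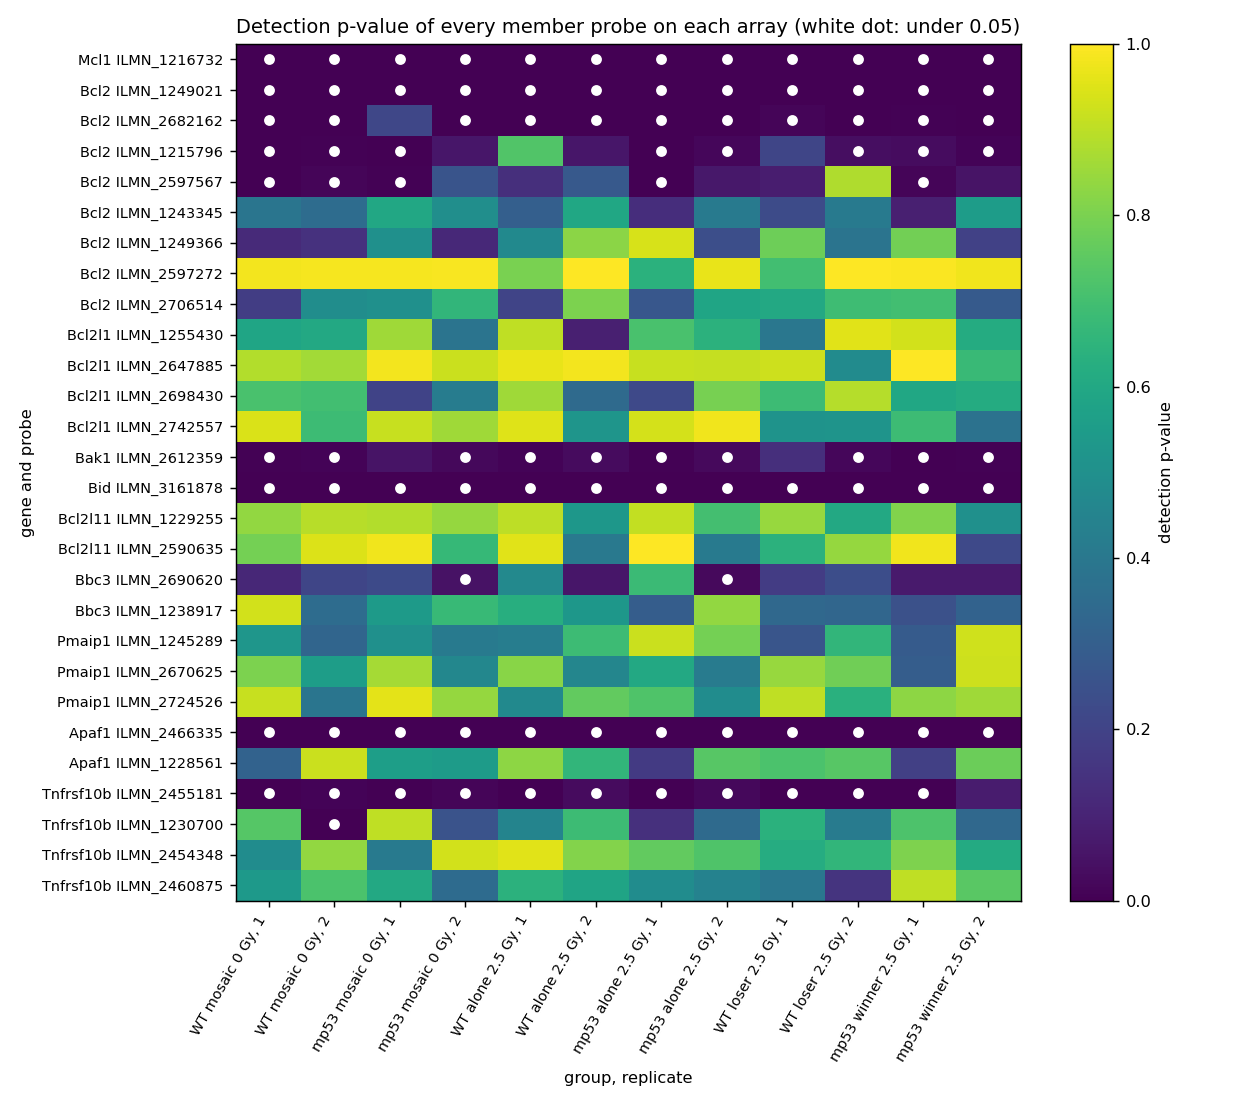
Detection p-value (colour, from 0 to 1) of the 28 member probes (rows, with gene and probe) on the 12 arrays (columns, by group and replicate, where alone means without competition). White dots mark values under 0.05: Mcl1, Bcl2, Bid and Apaf1 each have 1 row with a dot on all 12 arrays, and the rows of Bcl2l1, Bcl2l11 and Pmaip1 have none.

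The genes without a kept probe include the main p53-induced BH3-only genes. Pmaip1, whose product Noxa neutralizes Mcl1, had 3 probes, with a smallest detection p-value of 0.265 over 12 arrays. Bcl2l11, which encodes the BH3-only protein Bim, had 2 probes and a smallest value of 0.221. Bcl2l1, which encodes the anti-apoptotic Bcl-xL, had 4 probes and a smallest value of 0.088. For Bbc3, which encodes Puma, 1 of 2 probes was detected on 2 arrays, replicate 2 of unirradiated mp53 cells (0.049) and replicate 2 of irradiated mp53 cells without competition (0.024), and in no group on both arrays. These probes were not above background, which sets a bound on the signal and does not show that the genes were silent.

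Mcl1 encodes a short-lived anti-apoptotic protein that HSCs need. On the log2 scale of normalized intensity, its probe stood at 12.15 and 11.49 in unirradiated WT cells (replicates 1 and 2), 11.30 and 11.11 in unirradiated mp53 cells, 11.93 and 11.18 in irradiated WT cells without competition, 11.77 and 11.41 in irradiated mp53 cells without competition, 11.05 and 10.90 in losers, and 11.89 and 11.65 in winners. Replicate 1 was above replicate 2 in every group, an order that turned in every group in the authors' processed values. The losers held the 2 lowest of the 12 values, and winners and losers did not overlap. In the authors' processed values losers (10.33 and 11.48) and winners (11.17 and 12.20) overlapped. Under median scaling the lowest value was 8.72, on replicate 1 of unirradiated mp53 cells. Winners lay 0.80 above losers (SE 0.36), by 0.84 in replicate 1 and 0.75 in replicate 2, with a limma adjusted p of 0.374. In these bulk samples, fewer cells expressing a gene and less RNA per cell cannot be told apart.

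In mosaic mice, the irradiated and unirradiated groups stood in opposite order for Mcl1 in the 2 genotypes. In WT cells the irradiated group lay at -0.85 relative to the unirradiated one (-1.10 and -0.60 within replicates, limma unadjusted p 0.043, adjusted p 0.953), and the 2 groups did not overlap. In the authors' processed values they overlapped narrowly (losers up to 11.48, unirradiated WT cells from 11.45). In mp53 cells the difference was 0.56 (0.59 and 0.54). Their contrast, the interaction of irradiation with genotype, was 1.41 (SE 0.51), with an unadjusted p of 0.0221, the smallest of any member comparison, and an adjusted p of 0.297, so it did not pass. It was the 1 member under 0.05 unadjusted there, against 15.6% of all probes. Among the 14 comparisons, the direction for Mcl1 was the same under median scaling, with brightness as a covariate and in the authors' table, apart from the averaged irradiation difference of -0.14, which was 0.17 under median scaling (median over all probes 0.13).

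Bcl2, the founding anti-apoptotic gene of the family, had 4 kept probes of 8. The probe detected on all arrays, ILMN_1249021, stood at 9.54 and 9.47 in unirradiated WT cells, 10.01 and 9.03 in unirradiated mp53 cells, 9.30 and 7.21 in irradiated WT cells without competition, 9.79 and 7.77 in irradiated mp53 cells without competition, 9.48 and 8.72 in losers, and 8.27 and 7.50 in winners. Winners lay below losers and below unirradiated mp53 cells without overlap, and replicate 2 was below replicate 1 in all 6 groups. In the authors' processed values replicate 2 was instead above replicate 1 in the groups of mosaic mice (losers 8.82 and 9.31, winners 7.80 and 8.12). The difference between winners and losers was -1.21 (SE 0.82, limma adjusted p 0.497), with -1.21 and -1.22 within replicates, but 0.85 under median scaling (median over all probes 1.07) and 0.03 with brightness as a covariate. The smallest p for Bcl2 was that of irradiation in mp53 cells of mosaic mice, with a mean of 7.89 in winners and 9.52 in unirradiated mp53 cells (difference -1.63, SE 0.82, adjusted p 0.407). Under median scaling it was 0.44, with a median over all probes of 1.05.

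The 4 Bcl2 probes did not show 1 pattern. Relative to losers, winners were lower with ILMN_1249021 and ILMN_2682162 and higher with the other 2, in a range of -1.21 to 0.24. ILMN_2682162, detected on 11 arrays, stood in losers at 5.49 and 7.67, a wider gap than that between the group means of any pair of groups. ILMN_1215796 was detected on 8 arrays and ILMN_2597567 on 5. ILMN_2597567 passed the filter through unirradiated WT cells, the 1 group with both arrays detected, so a higher value there was favoured by the filter. Relative to unirradiated WT cells, irradiated WT cells without competition differed by -1.25 with ILMN_1249021, -0.68 with ILMN_2682162 and -1.02 with ILMN_1215796, and for ILMN_1215796, not detected on either irradiated WT array, unirradiated WT cells were at least 1.74-fold higher. A bound of this kind sets the bright group's mean against the lowest detected level, or the probe's own where that is higher, on the other group's arrays. Winners differed from irradiated mp53 cells without competition by -1.08 to -0.71 over the 4 probes. No limma adjusted p for any of these probes passed the threshold of 0.05.

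**Figure D2:**
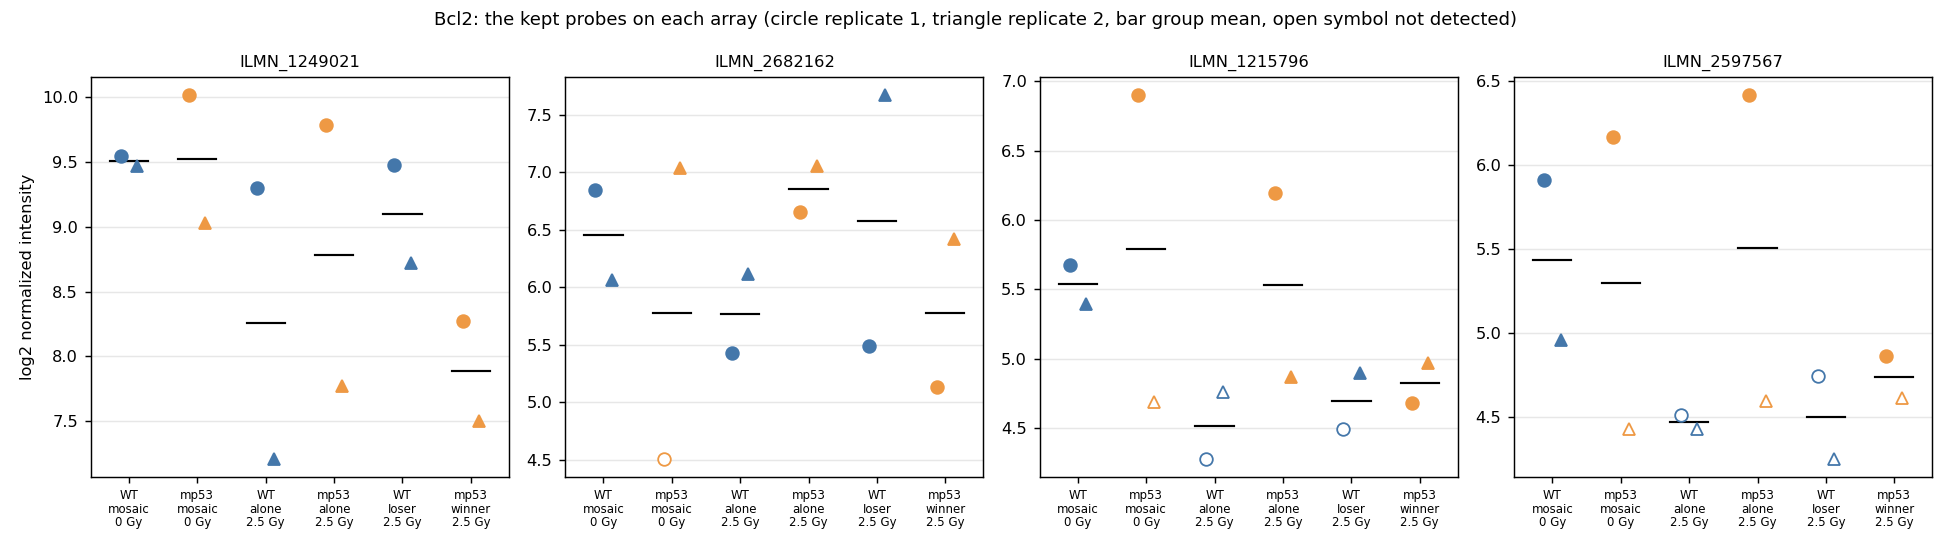
The 4 kept Bcl2 probes, 1 per panel with its own axis, as log2 normalized intensity by group (circles replicate 1, triangles replicate 2, bars the mean of the 2 arrays, open symbols not detected, alone meaning without competition). With ILMN_1249021 winners (8.27 and 7.50) lie below losers (9.48 and 8.72), an order that turns under median scaling (0.85, with 1.07 for the median of all probes), and ILMN_1215796 and ILMN_2597567 show winners slightly above losers in the mean.

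Bak1 encodes an effector of the outer mitochondrial membrane. Its probe was close to the detection limit, at 5.13 and 5.0 in unirradiated WT cells, 5.07 and 4.93 in unirradiated mp53 cells, 4.98 and 4.95 in irradiated WT cells without competition, 5.22 and 4.74 in irradiated mp53 cells without competition, 4.59 and 5.10 in losers, and 5.39 and 5.15 in winners. It was not detected on replicate 1 of losers (detection p 0.134) or of unirradiated mp53 cells (0.052), the 2 dimmest arrays. Winners lay above losers by 0.42 (SE 0.30, limma adjusted p 0.509), by 0.80 in replicate 1 and 0.05 in replicate 2, and by 0.17 without loser replicate 1, on which Bak1 was not detected, and 0.68 without loser replicate 2.

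Bid encodes the BH3-only protein that links death receptors to mitochondria once caspase-8 has cut it. Its levels were 6.77 and 6.35 in unirradiated WT cells, 6.93 and 6.87 in unirradiated mp53 cells, 6.81 and 7.36 in irradiated WT cells without competition, 6.61 and 7.31 in irradiated mp53 cells without competition, 6.38 and 7.09 in losers, and 7.08 and 7.47 in winners. Replicate 2 was above replicate 1 in all 4 irradiated groups and below it in both unirradiated ones. Under median scaling and in the authors' processed values replicate 2 was the higher in every group, so this split depends on the normalization. Winners and losers overlapped, since loser replicate 2 exceeded winner replicate 1, and their difference was 0.54 (SE 0.39, limma adjusted p 0.516). It was 0.18 without replicate 1 of losers, 0.89 without replicate 2 of losers and 0.34 without replicate 2 of winners. The 6 group means of Bid spanned 0.71 against a pooled SD of 0.37 within groups.

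Apaf1, the scaffold of the apoptosome, had 1 probe detected on all arrays and another, ILMN_1228561, detected on none. The detected probe stood at 8.31 and 8.28 in unirradiated WT cells, 7.99 and 8.53 in unirradiated mp53 cells, 8.67 and 9.09 in irradiated WT cells without competition, 6.38 and 9.82 in irradiated mp53 cells without competition, 6.89 and 8.11 in losers, and 8.81 and 9.41 in winners. Both losers were below both winners and below both irradiated WT arrays without competition. In the authors' processed values losers (6.80 and 8.71) overlapped with winners (8.23 and 9.99) and with irradiated WT cells without competition (8.13 and 9.68). The lowest and the highest of the 12 values came from the same group, irradiated mp53 cells without competition. Winners lay above losers by 1.61 (SE 0.94, limma adjusted p 0.448), by 1.92 and 1.30 within replicates, and by 0.16 with brightness as a covariate. The interaction of competition with genotype, the Apaf1 comparison with the smallest p, was 2.40 (SE 1.33, adjusted p 0.709), but 4.22 in replicate 1 and 0.58 in replicate 2. No member had an unadjusted p under 0.05 there, against 7.57% of all probes. Without replicate 1 of irradiated mp53 cells without competition it was 0.68, and without replicate 2 of that group it was 4.12.

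Tnfrsf10b encodes the mouse receptor of the death ligand Trail. Its levels were 5.60 and 5.01 in unirradiated WT cells, 8.03 and 5.17 in unirradiated mp53 cells, 5.62 and 5.0 in irradiated WT cells without competition, 6.02 and 4.81 in irradiated mp53 cells without competition, 7.05 and 5.86 in losers, and 5.70 and 4.54 in winners. Here too replicate 1 was above replicate 2 in every group. The 2 highest values came from the 2 dimmest arrays, and winner replicate 2 was the 1 array on which the probe was not detected. Its raw intensity hardly varied, from 72.7 to 78.1 over the 6 arrays of replicate 1 (1.07-fold) and from 55.3 to 61.9 over those of replicate 2 (1.12-fold), while the normalized levels spanned 5.60 to 8.03 and 4.54 to 5.86. Winners differed from losers by -1.33 (SE 0.91, limma adjusted p 0.498), but by 0.71 with brightness as a covariate.

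The interaction of irradiation with genotype for Tnfrsf10b was -2.63 (SE 1.29, limma adjusted p 0.343). It was -4.06 with an adjusted p of 0.0442 without replicate 2 of unirradiated mp53 cells, -1.20 without replicate 1 of that group, -0.40 under median scaling (median over all probes 1.80) and 0.69 with brightness as a covariate. Of 3 further probes, ILMN_1230700 was detected on 1 array and the others on none.

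**Figure D3:**
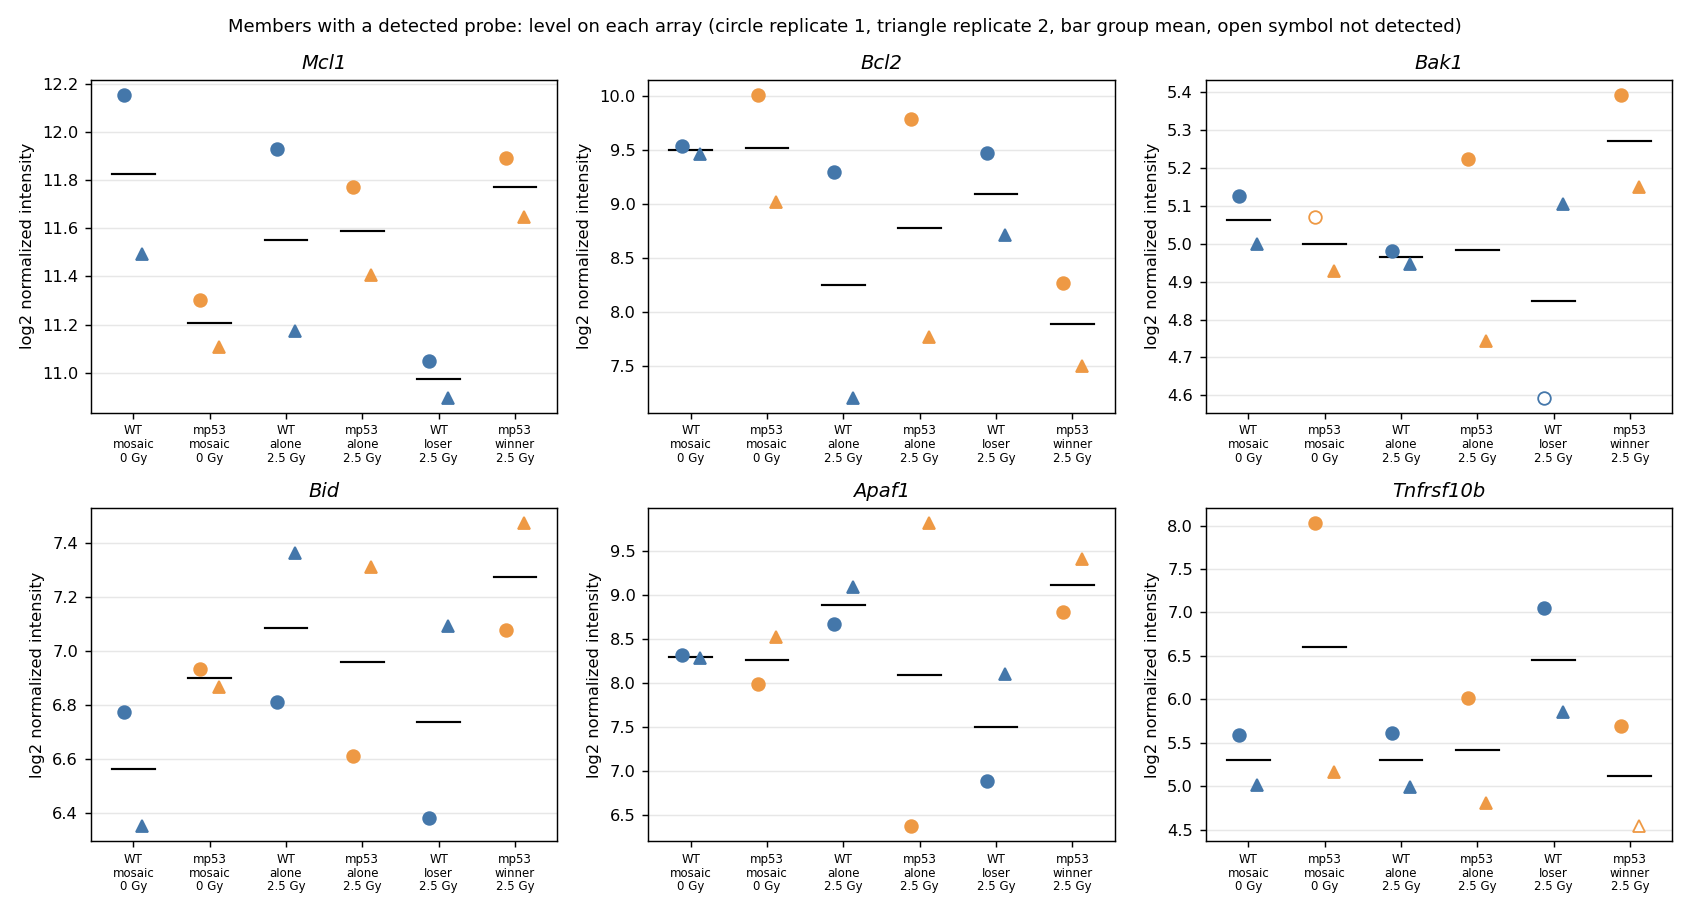
Log2 normalized intensity of the 6 members with a kept probe, 1 panel per gene with its own axis, by group (circles replicate 1, triangles replicate 2, bars the mean of the 2 arrays, open symbols not detected, alone meaning without competition). With this normalization the losers are lowest in Mcl1 (11.05 and 10.90), winners are lowest in mean in Bcl2, and the Tnfrsf10b value of 8.03 lies on the dimmest array.

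Between winners and losers, Mcl1, Bid, Bak1 and Apaf1 had higher values in winners and Bcl2 and Tnfrsf10b lower ones, in both replicates for all 6 genes. Any gene whose groups do not overlap must show this. The share of all probes with 1 sign in both replicates was not computed. Bcl2 turned to 0.85 under median scaling, still below the median of 1.07 over all probes, and also with brightness as a covariate and Tnfrsf10b under the latter. The groups did not overlap for 5 of the 6 genes, all but Bid, against 53.4% of all 13512 probes tested, so a gap between groups was common on these arrays. In the authors' processed values Mcl1, Bak1 and Apaf1 overlapped as well. None of the 6 had an adjusted p under 0.05 (0% of all probes) and 0 had an unadjusted p under 0.05, which 13.8% of all probes had. The median over the 6 members was 0.48, and -0.04 over all probes.

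Markers of several other cell types moved with this comparison. The list of progenitor and gate exclusion markers (3 higher and 2 lower in winners) and that of megakaryocytes (1 higher and 2 lower) were mixed. All 11 measured HSC markers lay lower in winners, with a summed level of 8.98 to 9.93 against 12.31 to 12.64 in losers. All 14 granulocyte and monocyte markers lay higher (15.72 to 15.93 against 13.30 to 15.18), as did all 6 of the B lineage (9.59 to 11.18 against 7.78 to 8.27), all 5 of T and NK cells (9.10 to 10.55 against 7.04 to 9.43) and 7 of 8 of erythroid cells (12.47 to 13.09 against 8.31 to 11.39). Of the markers that define these cells, Cd79b and S100a8 were detected on all 12 arrays, Cd3d on 8, Cd3e and Ebf1 on 5 each and Cd79a on 2, both of them winners. Itgam, Pax5, Cd3g and Gzmb were detected on none. Cd79a thus passed the filter through the group where it is high. Among the HSC markers, Tek was detected only on the 2 arrays of unirradiated WT cells, and Slamf1 on replicate 2 of losers but on no winner array. The marker counts here and below include such values near background. The part of these cell types in the members' differences was not tested.

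**Figure D4:**
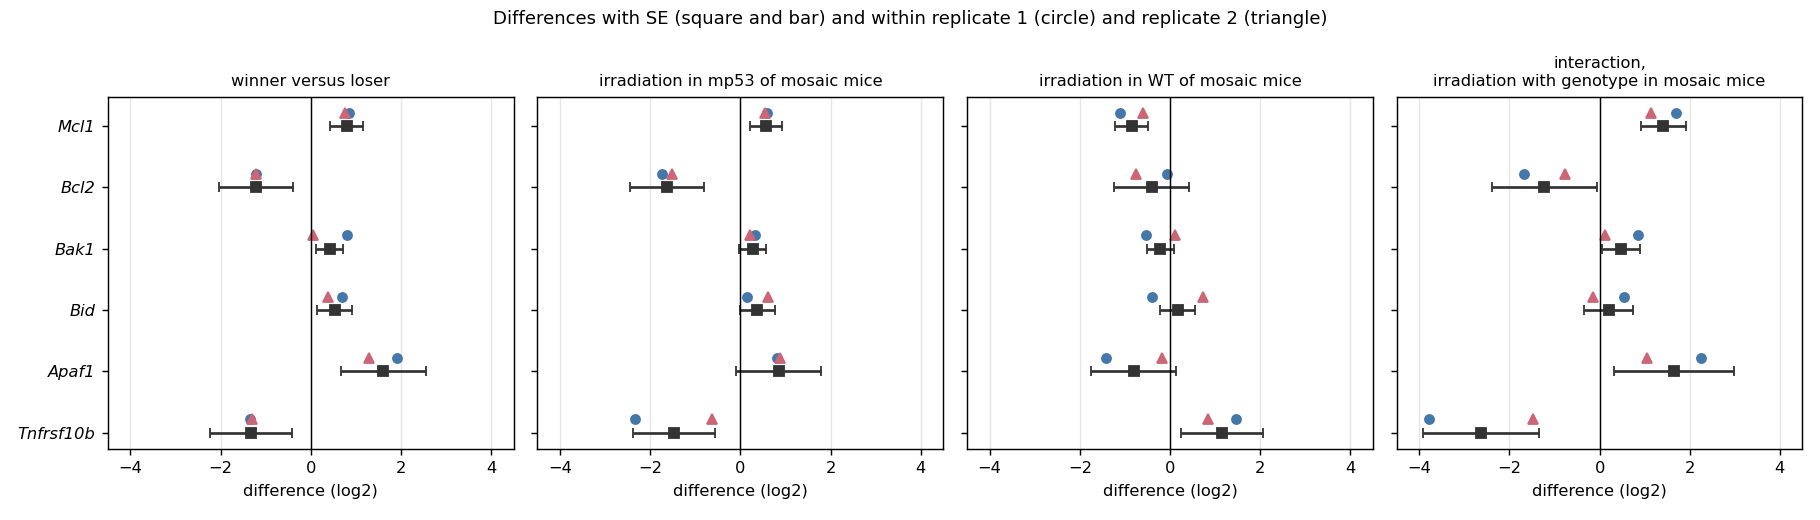
Differences (log2) of the 6 members in 4 comparisons, with squares and bars for the limma estimate and its SE and with circles and triangles for the differences within replicates 1 and 2. For winner versus loser every gene has both replicates on 1 side of 0, which any gene without overlap between the groups must show. There Bcl2 (-1.21) turns to 0.85 under median scaling (median of all probes 1.07) and Tnfrsf10b (-1.33) turns to 0.71 with brightness as a covariate. The interaction of Mcl1 (1.41) is the one with the smallest p.

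Competition compared cells of irradiated mosaic mice with irradiated cells of the same genotype that had no competitor. In losers, Mcl1 and Apaf1 lay lower than in irradiated WT cells without competition, with differences of -0.58 (SE 0.36) and -1.38 (SE 0.94), and Tnfrsf10b lay higher by 1.15 (SE 0.91). These 3 of 6 genes had groups that did not overlap, against 36.1% of all probes. In the authors' processed values the groups of Mcl1 and Apaf1 overlapped. Limma's adjusted p was 0.912 for each of the 3 genes. Beside them, all 14 granulocyte and monocyte markers lay lower in losers (summed level 13.30 to 15.18 against 15.61 on the lower of the 2 WT arrays without competition) and 10 of 11 HSC markers higher (12.31 to 12.64 against 10.72 to 12.01), and their part was not tested. In winners, no member was separated from irradiated mp53 cells without competition (0 of 6, against 28.6% of all probes), and Mcl1 differed by 0.18 (SE 0.36). Markers differed there as well, with all 11 of HSCs lower in winners (median -2.10). All 14 of granulocytes and monocytes (median 2.29) and all 6 of the B lineage (median 1.51) were higher, and their part was not tested. At an unadjusted p under 0.05 there were 0 members in either comparison, against 4.05% and 2.94% of all probes.

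Winners were separated from unirradiated mp53 cells of mosaic mice for 5 of 6 members, against 44.7% of all probes. By the labels this comparison changes dose and competition together, as does that of losers with unirradiated WT cells. The 2 cannot be told apart. Mcl1, Bid, Bak1 and Apaf1 were higher in winners than in unirradiated mp53 cells, by 0.56, 0.37, 0.27 and 0.85, the last at -0.52 with brightness as a covariate. The same winner arrays serve here and in the comparison with losers, so the 2 sets of differences are not independent. Here too all 11 HSC markers lay lower in winners (summed level 8.98 to 9.93 against 12.26 to 12.42), all 14 granulocyte and monocyte markers higher (15.72 to 15.93 against 14.11 to 15.38) and all 6 of the B lineage higher (9.59 to 11.18 against 8.25 to 8.64), and their part was not tested. Limma's adjusted p was 0.407 to 0.653 for the 6 members, and 0 members had an unadjusted p under 0.05, against 13.3% of all probes. In WT cells of mosaic mice 3 of 6 members were separated, against 36.6% of all probes, with Mcl1 and Apaf1 lower and Tnfrsf10b higher in losers (-0.85, -0.80 and 1.15). There 1 member, Mcl1, had an unadjusted p under 0.05, against 4% of all probes. The Apaf1 and Tnfrsf10b differences were 0.18 and -0.24 with brightness as a covariate.

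Irradiated cells without competition were compared with the unirradiated cells of their genotype from mosaic mice. In WT cells 4 of 6 members did not overlap, against 30.2% of all probes, with Bcl2 at -1.25 (SE 0.82), Bid at 0.52 (SE 0.39), Apaf1 at 0.58 (SE 0.94) and Bak1 at -0.10 (SE 0.30). For Bcl2 that rested on replicate 2, with -0.24 and -2.26 within replicates. Beside these differences, all 11 HSC markers lay lower in irradiated WT cells (median -0.91) and all 14 granulocyte and monocyte markers higher (median 1.36). Their part was not tested. In mp53 cells 1 of 6 was separated, Mcl1 at 0.38 (SE 0.36), against 23.9% of all probes. Called members numbered 0 in both by limma, also at an unadjusted p under 0.05, against 1.78% and 3.41% of all probes.

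Mutant p53 itself was compared with WT in unirradiated mosaic mice and in irradiated mice without competition. Unirradiated mp53 cells differed from WT cells by -0.62 in Mcl1 (SE 0.36) and by 0.34 in Bid (SE 0.39, and -0.71 under median scaling beside a median of -0.66 over all probes), both without overlap, against 28.5% of all probes that did not overlap. In irradiated cells without competition 0 of 6 members were separated, against 20% of all probes, and Mcl1 differed by 0.04. Averaged over the 3 settings, the 6 differences lay between -0.22 (Bcl2, SE 0.48) and 0.26 (Apaf1, SE 0.54), with an adjusted p of 1.00 for each. An unadjusted p under 0.05 was found for 0 members in these 3 comparisons, against 4.55%, 0.977% and 2.27% of all probes. With SEs of 0.17 to 0.54 for these averages, smaller differences could not be resolved.

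Of the other death genes, 35 from a list of 7 roles were measured and none passed limma's test in any comparison. Between winners and losers 16 were higher and 19 lower, with 3 and 1 at an unadjusted p under 0.05 (against 13.8% of all probes) and a median of -0.07, against -0.04 over all probes. The anti-apoptotic paralogs Bcl2a1b and Bcl2a1a, whose near-identical sequences may share signal and make the split between them uncertain, lay higher in winners. Bcl2a1b was at 7.96 and 7.03 in winners and 5.31 and 5.02 in losers (difference 2.33, SE 0.62, adjusted p 0.284). Bcl2a1a was at 6.17 and 5.47 in winners, not detected in losers, and at least 1.93-fold higher in winners. Its probe was detected on both arrays of winners only and so passed the filter through the group where it is high. Among caspase inhibitors, 3 of 5 were higher, and Xiap, which blocks caspase-9 and caspase-3, differed by -0.77 (SE 0.39, adjusted p 0.408). Naip6, another inhibitor of apoptosis gene, was not detected in losers and at least 1.31-fold higher in winners, again the 1 group through which its probe passed the filter. Ppp1r13l, which encodes the p53 inhibitor iASPP, differed by -0.84 (SE 0.39, adjusted p 0.383). The Ppp1r13l and Xiap differences were -0.11 and -0.10 under median scaling (median over all probes 1.07) and -0.08 and -0.06 with brightness as a covariate.

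Bok, an effector-like relative of Bak1, had the lowest unadjusted p of the 35 genes between winners and losers (0.00368). Its level was 4.97 and 5.04 in winners and 7.78 and 8.06 in losers, and the unirradiated mp53 cells stood at 8.32 and 7.20. Winners were below both without overlap. They differed by -2.91 (SE 0.74, limma adjusted p 0.283) from losers and by -2.75 (SE 0.74, adjusted p 0.366) from unirradiated mp53 cells, and by -1.28 and -1.11 under median scaling, where all probes had medians of 1.07 and 1.05. In WT cells of mosaic mice, irradiation went with a Bok difference of 1.64 (SE 0.74). Bak1 and Bok lay on opposite sides between winners and losers.

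**Figure D5:**
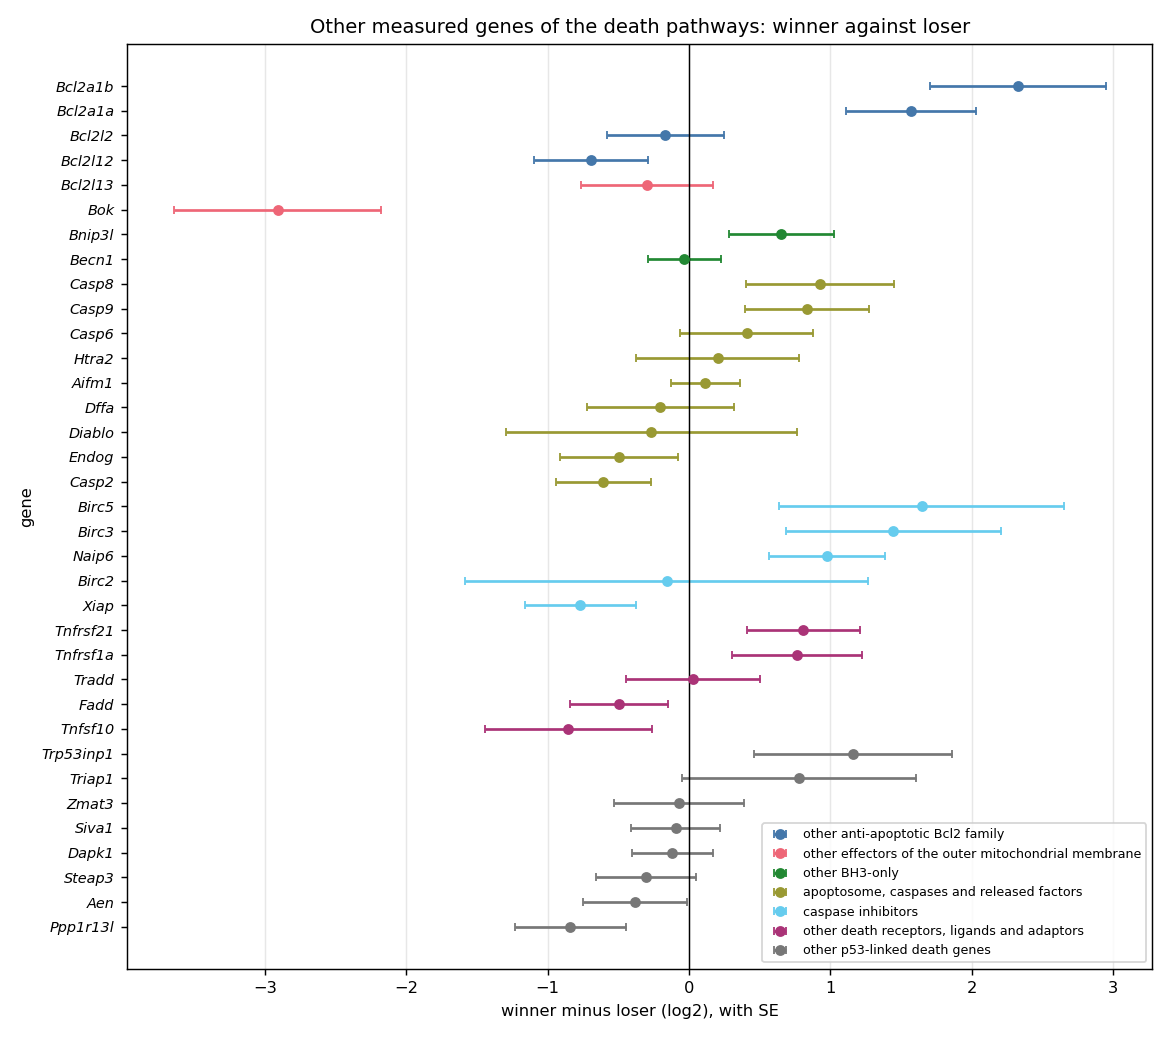
Difference between winners and losers (log2, points with SE bars) for the 35 other measured death genes, coloured by role. Bok lies at -2.91 and Bcl2a1b at 2.33, and none of the 35 passed the adjusted threshold.

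After irradiation, mp53 cells of mosaic mice had 20 of the 35 genes higher and 15 lower, with 4 and 5 at an unadjusted p under 0.05 (against 13.3% of all probes) and a median of 0.26, against 0.01 over all probes. Casp9, the caspase that Apaf1 activates, was at 7.43 and 7.50 in winners and 5.54 and 6.76 in unirradiated mp53 cells (difference 1.31, SE 0.44, limma adjusted p 0.366). Of the 9 genes for the apoptosome, caspases and released factors, 7 were higher, beside the Apaf1 difference of 0.85. Tnfrsf21, which encodes death receptor 6, was at 5.74 and 5.19 against 7.06 and 5.90 (difference -1.02, SE 0.40, and 0.33 under median scaling beside 1.05 over all probes). Averaged over the 3 settings, mp53 cells had higher Tnfrsf21 (0.82, SE 0.23) and Bcl2a1b (1.05, SE 0.36) than WT cells, each with an adjusted p of 1.00 and an unadjusted p of 0.00693 and 0.0183. The lowest p-values on the other side belonged to Zmat3, a p53 target, at -0.35 (SE 0.26), Bok at -0.53 (SE 0.42) and Diablo, which encodes an antagonist of Xiap, at -0.49 (SE 0.59, and 0.08 under median scaling beside 0.20 over all probes). The settings were uneven. Tnfrsf21 differed by 1.64 in unirradiated mosaic mice, -0.003 in irradiated mice without competition and 0.81 between winners and losers, and was not detected in losers. Bcl2a1b differed by 0.53, 0.28 and 2.33 in the same order.

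The genes whose 6 group means most resembled those of Bcl2 and Apaf1 were sought among all kept probes, by the root mean square difference of centred log2 means. For Bcl2 they were Fam229b (0.0986), Anxa4 (0.101) and Csad (0.118), and 76 probes lay within 0.25. For Apaf1 they were Man2a1 (0.0851), Mppe1 (0.0916) and Degs1 (0.110), and 169 probes lay within 0.25. With pooled SDs of 0.94 and 1.08 within groups for Bcl2 and Apaf1, a close match over 6 means describes these arrays only. The group means of Bcl2 spanned 1.63, of Apaf1 1.61, of Tnfrsf10b 1.48, of Mcl1 0.85, of Bid 0.71 and of Bak1 0.42. Relative to the pooled SD this span was highest for Mcl1, at 2.63, and 1.41 to 1.93 for the other 5.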

How the data were processed

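Total RNA of 12 sorted samples was hybridised to Illumina mouse bead arrays. Each replicate number has 1 deposited non-normalized table, which per the file headers pairs every array's linear intensity with its detection p-value. The authors also deposited processed intensity values, used as an alternative. The sources used here name no scanner software, no way of making the detection p-value and no genome build.

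Probes listed more than once (11) were averaged. Gene symbols came from the platform annotation, in which 29976 probes had 1 symbol, 10 several and 16646 none. Of the probes with 1 symbol, 29921 had a gene ID found in RefSeq's GRCm38.p6 gene table, which changed 0 symbols. Intensities were normexp-corrected from the detection p-values (offset 16), quantile normalized on the linear scale over 12 arrays and expressed as log2 (neqc, limma 3.58.1, R 4.3.3). Overlap between groups and the order of arrays refer to these values and can differ under another scaling. The 13512 kept probes cover 8374 genes, and a probe that passed through 1 group alone tends to lie higher there. The kept probe of highest mean stands for a gene. A limma model of 6 group means (6 residual degrees of freedom) gave 14 comparisons, with Benjamini-Hochberg adjustment over 13512 probes at 0.05. Precision is limited by the number of arrays, with a median SE of 0.49 log2 between groups. Comparisons share groups.

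Named were all 10 members, for likeness those detected on all arrays with means spanning at least 1 log2, and from the pathway list the 3 genes per direction with the smallest p. Members and lists were chosen with earlier results of these data known. Alternatives were the offset, the scaling, the filter, the prior, brightness, the replicate block, the authors' table, other probes and each array left out, and, added after seeing the data, quantile normalization of log2 values. The model code was tested on simulated data.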

Additional observations from a re-analysis of the deposited data

How the results depend on the processing

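Over 10 member differences and 226 alternatives, 218 kept their direction. The exceptions were Bcl2 between winners and losers, at 0.85 under median scaling (all probes 1.07), 0.034 with brightness as a covariate, 0.13 with ILMN_1215796 and 0.24 with ILMN_2597567, Bcl2 in irradiated against unirradiated mp53 cells of mosaic mice, at 0.44 under median scaling (all probes 1.05) and 0.0044 with ILMN_2682162, and Tnfrsf10b with brightness as a covariate, at 0.71 between winners and losers and 0.69 in the interaction of genotype with irradiation. The cause was not tested. In 1 alternative a member passed, the interaction for Tnfrsf10b at -4.06 (adjusted p 0.0442) without replicate 2 of unirradiated mp53 cells. A group left with 1 array is assumed to vary like the others.

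Called probes between winners and losers numbered 0 in the reported fit, 1 under median scaling, 1 with no filter and 3 with the trended and robust prior, and between winners and irradiated mp53 cells without competition 1 under median scaling. Leaving out each array in turn gave 0 to 82 for mp53 against WT unirradiated, 0 to 78 for irradiation in mp53 cells without competition, 0 to 981 in mp53 cells of mosaic mice and 0 to 1460 for the interaction of irradiation with genotype, each highest without replicate 2 of unirradiated mp53 cells, and 0 to 1 for averaged irradiation, with the 1 found without replicate 1 of that group.

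With the replicate block limma called 0 probes in all 14 comparisons, and the smallest member adjusted p was 0.0941 (Mcl1, interaction of irradiation with genotype). Unadjusted p under 0.05 numbered 3492 between winners and losers with the block and 1862 without. Samples with the same number deviated together in 14 of 15 pairs of groups (correlation 0.0702 to 0.640, median 0.530), a hint of a shared replicate effect from the data, not the design. The 1 pair under 0.1 missed the requirement set for a block, and the labels do not say what the number marks. Signal near background limits the probes of Bak1 and Tnfrsf10b.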
